A study of Homo sapiens with 4 samples.

Results

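The genes described here are integrin subunits, laminin chains, the adhesive glycoproteins of the extracellular matrix that they bind, and 5 proteins that act on the cytoplasmic side of integrins. They were chosen by gene symbol, with no measured value used, and number 55 of the 15575 genes in the count table: 16 integrin alpha and 8 integrin beta subunits, 11 laminin chains, 2 basement membrane linkers, 8 adhesive or matricellular glycoproteins, 5 fibrillins and fibulins, and PTK2, ILK, PXN, FERMT1 and FERMT2. RNA-seq was performed on U251 cells, an established human glioblastoma (GBM) line, which had received either a lentiviral control shRNA (Ctrl, 2 libraries) or a lentiviral shRNA against PRMT3, a protein arginine methyltransferase (PRMT3-KD, 2 libraries), for 72 h. The cells of all 4 libraries thus received a lentivirus, and U251 cells without virus were not analysed here. The titles of the Ctrl libraries name pGreen, and those of the PRMT3-KD libraries do not. The hairpin used for these libraries is not given in the sources used here. No label says that the libraries came from separate cultures, so the p-values measure the spread between these libraries, which may be technical.

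Integrins are receptors made of 1 alpha and 1 beta subunit that span the plasma membrane and join the matrix outside to actin inside. The pairing sets the ligand: some alpha subunits bind laminin, some bind collagen, and others bind the RGD motif of fibronectin and related glycoproteins. Laminins are trimers of an alpha, a beta and a gamma chain that form the sheet of the basement membrane, where nidogen and perlecan link them to collagen IV. When an integrin binds, adaptors and kinases such as paxillin and focal adhesion kinase gather at its cytoplasmic tail and form a focal adhesion. In glioma, cells move along laminin-rich vessel walls and white matter tracts, and integrins and tenascin C are known for their part in this movement.

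Total counts lay between 24804250 and 29756313 per library. Each Ctrl library held 535 counts of PRMT3, against 77 and 45 in the PRMT3-KD libraries (log2 fold change -3.08 with a standard error, SE, of 0.314; edgeR adjusted p = 0.0177 by the quasi-likelihood test with Benjamini-Hochberg correction), the direction its label gives. The 2 PRMT3-KD libraries stood far apart, with a biological coefficient of variation of 0.204, against 0.0107 between the 2 Ctrl libraries. The Ctrl libraries differed little more than counting error gives (chi-square per degree of freedom 1.42, against 63.6 between the PRMT3-KD libraries). Vimentin, nestin and CD44, which mark glioma cells, were abundant, with at least 113123 counts of VIM, 11650 of NES and 46740 of CD44 in every library. The astrocyte markers were uneven: SOX9 had 3704 to 6772 counts per library, SLC1A3 1679 to 3252, GFAP 32 to 392 and S100B 49 to 80, while AQP4 and CHI3L1 had at most 1 and 2. Leukocyte, endothelial and epithelial markers are given below.

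Of the 55 genes, 48 passed the filter on low counts and were tested. FBLN5, ITGAD, ITGAL, ITGAX, ITGB7, LAMA3 and LAMC3 did not pass it, and none of them had more than 9 counts in any library. Values below are CPM (counts scaled to the library total) after TMM scaling, the log2 fold change is PRMT3-KD against Ctrl, and the threshold is an adjusted p under 0.05 together with a level over 1.5 times higher or lower. Since 2 libraries against 2 allow no two-sided exact permutation p below 0.333, single genes are given p-values of the edgeR model fitted across 13172 genes. In bulk RNA, a change in the RNA of each cell and a change in the share of cells that make it cannot be told apart.

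Genes past the threshold came from 4 of the 7 classes. In all, 6 of the 48 tested genes rose in PRMT3-KD cells: the matrix proteins SPARC and THBS2, the laminin chain LAMA5, the integrin alpha subunits ITGA7 and ITGA11, and PTK2, which encodes focal adhesion kinase. This is 12.5%, against 4.97% of all genes tested. TGFBI and PXN fell, which is 4.17%, against 5.97% of all genes tested. In either direction 16.7% of the adhesion genes were past the threshold, against 10.9% of all genes. The median log2 fold change of the 48 genes was 0.03, with 26 above and 22 below 0, and that of all genes was 0.0055. The 55 genes took a share of all counts of 1.93% and 1.94% in Ctrl, 2.04% in the first and 2.62% in the second PRMT3-KD library.

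The calls of the 8 genes past the threshold rested on both Ctrl libraries. Their direction was the same with any library left out, which is built in, as the groups do not overlap for these genes. A lone Ctrl library is taken to vary as much as the PRMT3-KD libraries. The log2 fold change of ITGA7 was 1.06 and 1.13 without Ctrl library 1 or 2, against 1.10 with all libraries. That of ITGA11 was 2.24 and 2.12, against 2.18. Without Ctrl library 1, edgeR passed 0 genes of the whole table (1601 genes, 9 of them adhesion genes, at an unadjusted p under 0.05 and over 1.5-fold). Without Ctrl library 2, it passed 26 genes (0.197% of those tested), 0 of them adhesion genes (1665 and 10 at the unadjusted p). In these fits the 8 genes had edgeR adjusted p between 0.0958 and 0.328. When a PRMT3-KD library is left out, the lone one is taken to vary as little as the Ctrl libraries, and 17 adhesion genes passed without library 1 (35.4%, against 23.3% of all genes) and 21 without library 2 (43.8%, against 22.7%). Without library 1, PTK2 no longer passed and FERMT1, ITGA2, ITGA4, ITGA6, ITGA9, ITGB1, LAMB4, LAMC1, THBS1 and THBS3 were added. Without library 2, the additions were FBLN2, FN1, HSPG2, ITGA2, ITGA9, ITGB4, ITGB5, ITGB6, LAMA2, LAMA4, LAMB2, THBS3 and THBS4. ITGA2 was higher in both of these fits, and ITGA9 and THBS3 were called in opposite directions. DESeq2 and limma-voom with group weights each passed 12, namely the same 8 and ITGA2, ITGB4, ITGB5 and THBS1. These are 25.0% of the adhesion genes, against 13.9% of all genes with DESeq2 and 12.8% with limma-voom.

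**Figure D1:**
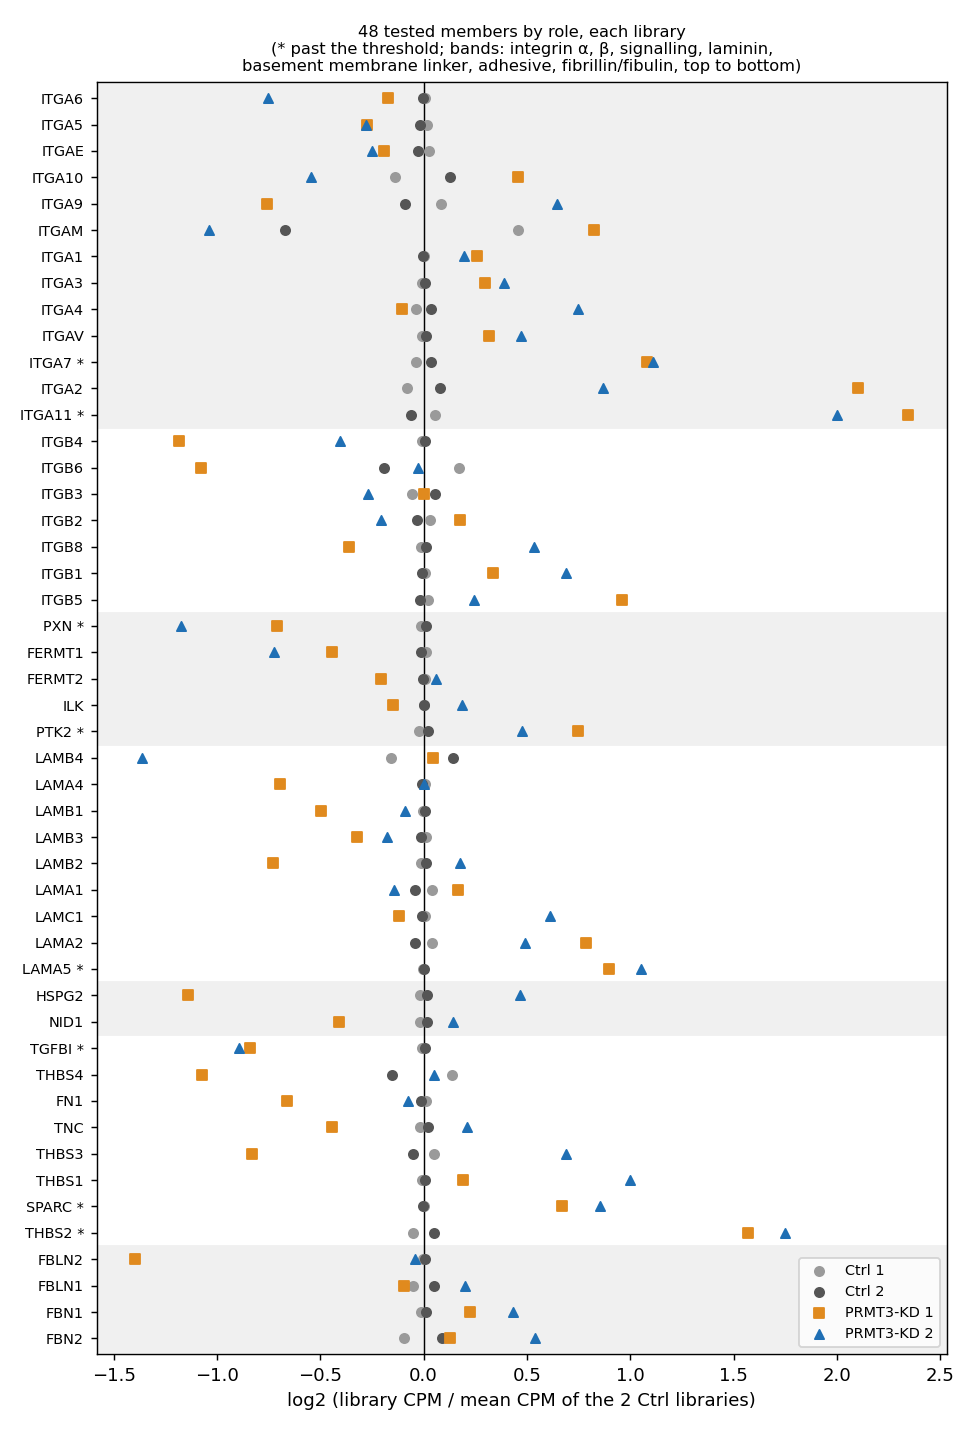
Level of each of the 48 tested genes in each library, as log2 of its CPM over the mean of the 2 Ctrl libraries, by class. The 2 Ctrl libraries lie close together except for low genes such as ITGAM, while the 2 PRMT3-KD libraries lie on opposite sides of them for 16 genes.

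Among the integrin alpha subunits, 2 of 13 tested rose in PRMT3-KD cells and 0 fell past the threshold (4.97% of all genes rose and 5.97% fell), with a median log2 fold change of 0.23 (10 above and 3 below 0). ITGA11, a collagen-binding subunit, had 1.73 and 1.60 CPM in Ctrl and 8.46 and 6.65 CPM in PRMT3-KD libraries. Both PRMT3-KD values were far above both Ctrl values, from low counts of 48 and 44 in Ctrl to 215 and 189 in PRMT3-KD. The log2 fold change was 2.18 (SE 0.216, edgeR adjusted p = 0.0172; 1.99 to 2.34 with a library left out). ITGA7, a laminin-binding subunit best known from muscle, had 39.3 and 41.4 CPM in Ctrl and 85.2 and 87.2 CPM in PRMT3-KD libraries. The 2 PRMT3-KD libraries thus held nearly the same level, and its log2 fold change was 1.10 (SE 0.0760, edgeR adjusted p = 0.0142; 1.06 to 1.13 with a library left out). ITGA7 lies on chromosome 12 of GRCh37 (chr12:56078352-56110188, minus strand), where its exons overlap those of METTL7B and BLOC1S1 on the other strand. ITGA11 lies on chr15:68588870-68724502, also on the minus strand.

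ITGA3, which pairs with the ITGB1 product as a laminin receptor, was the most abundant integrin subunit in Ctrl per kilobase of exon (148 CPM per kb). Its level was 1440 and 1457 CPM in Ctrl and 1779 and 1898 CPM in PRMT3-KD libraries. Both PRMT3-KD values lay above both Ctrl values, but the log2 fold change of 0.34 (SE 0.0742, edgeR adjusted p = 0.0468) was under 1.5-fold. ITGAV, the alpha subunit of the vitronectin receptors, likewise had an adjusted p under 0.05 at less than 1.5-fold, with 486 and 493 CPM in Ctrl and 609 and 678 CPM in PRMT3-KD libraries (log2 fold change 0.39, edgeR adjusted p = 0.0455). With these 2 genes, 10 adhesion genes (20.8%) had an adjusted p under 0.05 at any fold, against 17.3% of all genes. With the replicate number as a block, ITGA3 and ITGAV were no longer under 0.05 (edgeR adjusted p of 0.112 and 0.0825).

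ITGA2, the alpha subunit of the main collagen receptor of epithelia and platelets, had 28.8 and 32.1 CPM in Ctrl and 131 and 55.5 CPM in PRMT3-KD libraries. Each PRMT3-KD library was above both Ctrl libraries, and library 1 held more than 2 times the level of library 2. The log2 fold change of 1.61 (SE 0.431, 95% interval 0.46 to 2.76) had an adjusted p of 0.0698 in edgeR, 5.7e-05 in DESeq2 and 0.0083 in limma-voom. The other collagen-binding subunits ITGA1 and ITGA10 had log2 fold changes of 0.23 and 0.03 (edgeR adjusted p of 0.171 and 0.964). ITGA5, the alpha subunit of the fibronectin receptor, had 110 and 108 CPM in Ctrl and 90.3 and 89.8 CPM in PRMT3-KD libraries (log2 fold change -0.28, edgeR adjusted p = 0.0601). The laminin-binding ITGA6, the partner of ITGB4 in hemidesmosomes, had 110 and 109 CPM in Ctrl and 97.3 and 64.9 CPM in PRMT3-KD libraries (log2 fold change -0.43, edgeR adjusted p = 0.206). ITGA4 and ITGA9, a structurally related pair of receptors for VCAM1, fibronectin and tenascin C, were below both Ctrl libraries in PRMT3-KD library 1 and above both in library 2. Of the subunits known from leukocytes, ITGAE had 380 to 482 counts per library, ITGAM had 4 to 13, and ITGAD, ITGAL and ITGAX had at most 3.

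No integrin beta subunit was past the threshold in edgeR (10.9% of all genes were): of 7 tested, 3 had a log2 fold change above and 4 below 0. ITGB1, the common partner of most alpha subunits, had 689 and 681 CPM in Ctrl and 865 and 1104 CPM in PRMT3-KD libraries. Both PRMT3-KD values were higher than both Ctrl values, and the log2 fold change of 0.52 (SE 0.135, 95% interval 0.16 to 0.89) had an adjusted p of 0.0647 (edgeR). The annotation holds 1 ITGB1 pseudogene, which may share reads with it. ITGB5, which pairs with ITGAV, had 131 and 127 CPM in Ctrl and 250.9 and 153 CPM in PRMT3-KD libraries. ITGB4, the laminin receptor subunit of hemidesmosomes, had 721 and 729 CPM in Ctrl and 319 and 547 CPM in PRMT3-KD libraries. ITGB5 was thus higher and ITGB4 lower than Ctrl in both PRMT3-KD libraries, each with its larger difference in library 1.

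The log2 fold change of ITGB5 was 0.64 (SE 0.250, edgeR adjusted p = 0.142) and that of ITGB4 was -0.74 (SE 0.268, edgeR adjusted p = 0.124). Both passed the threshold with DESeq2, with adjusted p of 0.0342 and 0.0199. Per kilobase of exon, ITGB5 had 0.188 and 0.181 of the level of ITGB4 in Ctrl, against 0.815 and 0.289 in PRMT3-KD libraries. As ITGB5 was higher and ITGB4 lower there, the larger ratio is built in. ITGB8, a receptor that activates latent TGF-beta, had 113 and 115 CPM in Ctrl and 88.9 and 165 CPM in PRMT3-KD libraries, on both sides of Ctrl (log2 fold change 0.15, edgeR adjusted p = 0.746). ITGB3, the other classical partner of ITGAV, had 10.2 and 11.02 CPM in Ctrl and 10.6 and 8.80 CPM in PRMT3-KD libraries (log2 fold change -0.13, edgeR adjusted p = 0.580). ITGB6 had 22 to 57 counts and ITGB2, the leukocyte beta subunit, 54 to 63 counts per library. Their log2 fold changes were -0.45 and -0.0032 (edgeR adjusted p of 0.491 and 0.994). ITGB7, the remaining leukocyte beta subunit, was not tested, with 1 to 4 counts.

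**Figure D2:**
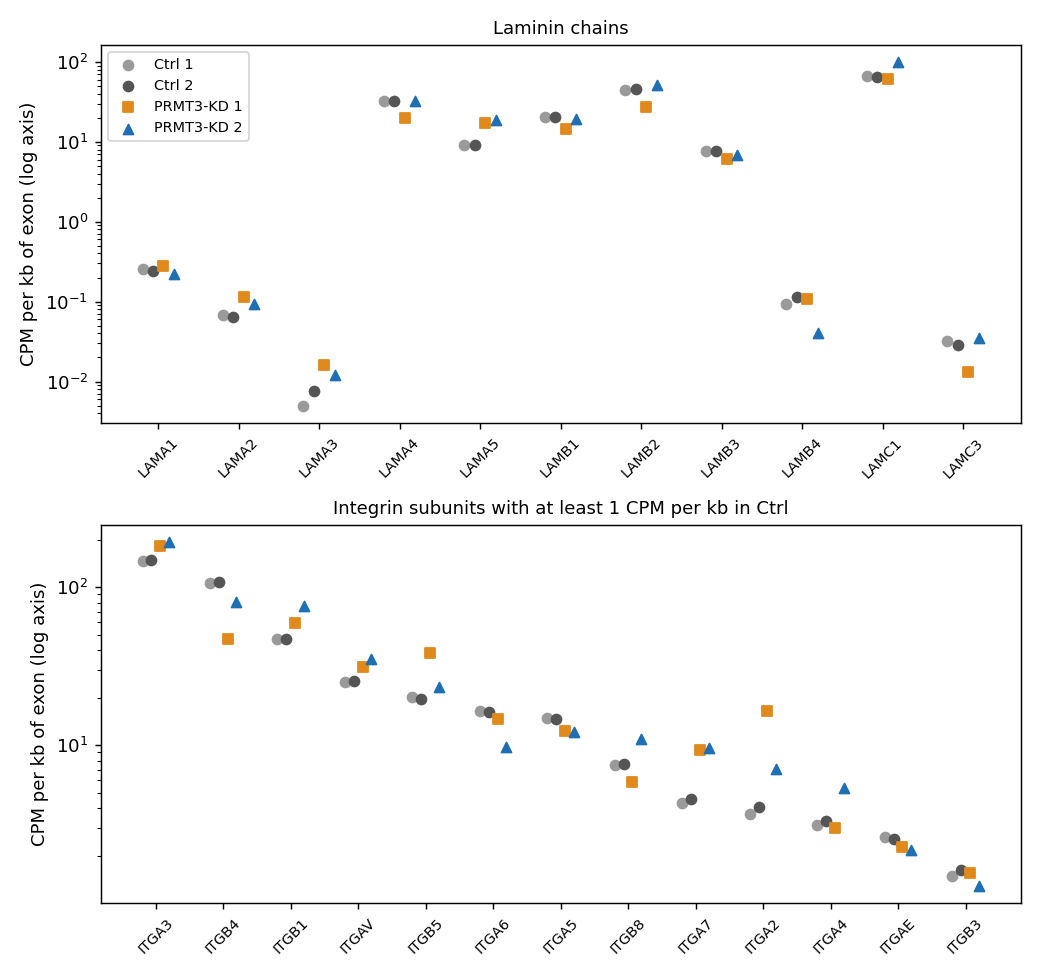
CPM per kilobase of exon, on a log axis, in each library, for 11 laminin chains and for the integrin subunits with at least 1 CPM per kilobase in Ctrl. LAMC1, LAMB2 and LAMA4 were the highest chains of their kind in Ctrl, and LAMA5 rose toward LAMA4 in both PRMT3-KD libraries.

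Of the 5 genes on the cytoplasmic side of integrins, PTK2 rose and PXN fell (4.97% and 5.97% for all genes). PTK2, the kinase that carries much of the signal of focal adhesions, had 94.7 and 97.9 CPM in Ctrl and 161 and 134 CPM in PRMT3-KD libraries. PTK2 had a log2 fold change of 0.62 (SE 0.114, edgeR adjusted p = 0.0357), just above the 1.5-fold limit of 0.585. PTK2 did not pass on library totals alone (log2 fold change 0.59, edgeR adjusted p = 0.0646) and was under 1.5-fold without PRMT3-KD library 1 (log2 fold change 0.47). PXN encodes paxillin, the adaptor to which this kinase binds, and had 528 and 536 CPM in Ctrl and 326 and 236 CPM in PRMT3-KD libraries. Both PRMT3-KD values were well below both Ctrl values, with a log2 fold change of -0.92 (SE 0.170, edgeR adjusted p = 0.0357; -1.17 to -0.71 with a library left out). PXN lies on chr12:120648242-120703574 on the minus strand, and its exons overlap those of PXN-AS1 on the other strand.

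The other proteins of this class were not past the threshold. ILK, a pseudokinase scaffold that binds integrin beta tails, had 116 and 116 CPM in Ctrl and 105 and 132 CPM in PRMT3-KD libraries (log2 fold change 0.03, 95% interval -0.32 to 0.37, edgeR adjusted p = 0.895). FERMT2, a kindlin that helps to activate integrins, had 117 and 116 CPM in Ctrl and 101 and 121 CPM in PRMT3-KD libraries (log2 fold change -0.07, 95% interval -0.36 to 0.23, edgeR adjusted p = 0.695). For both genes the PRMT3-KD libraries lay on opposite sides of Ctrl. FERMT1, the kindlin of epithelia, had 10.1 and 9.93 CPM in Ctrl and 7.36 and 6.05 CPM in PRMT3-KD libraries, lower in both (log2 fold change -0.58, edgeR adjusted p = 0.0721).

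Among the laminin chains, 1 of 9 tested rose and 0 fell past the threshold (4.97% and 5.97% for all genes), with 4 above and 5 below 0. LAMA5, the alpha chain of laminin found in most adult basement membranes and in those of vessels, had 130 and 131 CPM in Ctrl and 243 and 271 CPM in PRMT3-KD libraries. Both PRMT3-KD libraries were close to 2 times Ctrl. The log2 fold change was 0.98 (SE 0.0850, edgeR adjusted p = 0.0151; 0.89 to 1.05 with a library left out). LAMA5 lies on chr20:60883011-60942368 on the minus strand, and its exons overlap those of ADRM1 and LAMA5-AS1 on the other strand.

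LAMB3 and LAMA3 were not past the threshold. LAMB3, a beta chain best known from epithelia, had 36.1 and 35.4 CPM in Ctrl and 28.6 and 31.6 CPM in PRMT3-KD libraries (log2 fold change -0.25, edgeR adjusted p = 0.138), and LAMA3 had 2 to 6 counts per library and was not tested. LAMC1, the gamma chain of most laminins, had 555 and 550 CPM in Ctrl and 509 and 846 CPM in PRMT3-KD libraries (log2 fold change 0.29, edgeR adjusted p = 0.453). LAMB1 and LAMB2, the beta chains that join it, had log2 fold changes of -0.28 and -0.21 (edgeR adjusted p of 0.256 and 0.664). LAMA4, an alpha chain of vessel laminins, had 391 and 387 CPM in Ctrl and 241 and 390 CPM in PRMT3-KD libraries. Its PRMT3-KD library 1 was far below Ctrl and its library 2 was at the Ctrl level (log2 fold change -0.30, edgeR adjusted p = 0.419). Per kilobase of exon, LAMA5 stood at 0.279 and 0.284 of LAMA4 in the Ctrl libraries, and at 0.847 and 0.582 in the PRMT3-KD libraries. As LAMA5 rose and LAMA4 did not, the larger ratio is built in.

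In order of Ctrl level per kilobase of exon, the laminin chains were LAMC1 at 65.4, LAMB2 at 44.9, LAMA4 at 32.5, LAMB1 at 20.4, LAMA5 at 9.15 and LAMB3 at 7.69 CPM per kb. In PRMT3-KD cells the mean of LAMA5 was 18.0 ± 1.39 and that of LAMB1 16.9 ± 3.36 CPM per kb (SD, n = 2 each), so these neighbours lay within their spread. LAMA1, LAMA2, LAMB4, LAMA3 and LAMC3 were each under 1 CPM per kb in every library. LAMA2, the alpha chain of muscle and Schwann cell laminin, had 50 and 47 counts in Ctrl against 77 and 70 in PRMT3-KD libraries (log2 fold change 0.64, edgeR adjusted p = 0.124).

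Of the adhesive and matricellular glycoproteins, SPARC and THBS2 rose, TGFBI fell and 5 did not pass the threshold (4.97% of all genes rose and 5.97% fell). SPARC, a collagen-binding protein that loosens cell attachment, had 2623 and 2613 CPM in Ctrl and 4171 and 4738 CPM in PRMT3-KD libraries. It had the second highest Ctrl level per kilobase of exon of the 55 genes (564 CPM per kb) and was higher in both PRMT3-KD libraries, with a log2 fold change of 0.77 (SE 0.0926, edgeR adjusted p = 0.0198; 0.67 to 0.86 with a library left out). TGFBI, an RGD-bearing matrix protein induced by TGF-beta, had 1918 and 1933 CPM in Ctrl and 1076 and 1037 CPM in PRMT3-KD libraries. The fall had almost the same size in both PRMT3-KD libraries. TGFBI had a log2 fold change of -0.87 (SE 0.0697, edgeR adjusted p = 0.0142; -0.89 to -0.84 with a library left out). Per kilobase of exon, SPARC had 2.28 and 2.25 times the level of TGFBI in the Ctrl libraries and 6.45 and 7.60 times in the PRMT3-KD libraries. As SPARC rose and TGFBI fell, the larger ratio is built in. SPARC (chr5:151040657-151066536, minus strand) has exons that overlap CLMAT3 on the other strand, and TGFBI lies on the same chromosome at chr5:135364677-135399507 on the plus strand.

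THBS2, a thrombospondin that limits vessel growth, was near the lower end of detection, with 16 and 17 counts in Ctrl against 45 and 57 in PRMT3-KD libraries (log2 fold change 1.65, SE 0.266, edgeR adjusted p = 0.0287; 1.56 to 1.74 with a library left out). It lies on chr6:169615875-169654145 on the minus strand and overlaps THBS2-AS1 on the other strand. Its paralog THBS1, which also activates latent TGF-beta, had the highest Ctrl level of the 55 genes per kilobase of exon (597 CPM per kb), with 5435 and 5492 CPM in Ctrl and 6232 and 10926 CPM in PRMT3-KD libraries. THBS1 was above Ctrl in both PRMT3-KD libraries, slightly in library 1 and about 2-fold in library 2, with a log2 fold change of 0.65 (SE 0.280, edgeR adjusted p = 0.172; 0.0467 with DESeq2). FN1, which encodes fibronectin, had 357 and 351 CPM in Ctrl and 224 and 336 CPM in PRMT3-KD libraries (log2 fold change -0.34, edgeR adjusted p = 0.301). TNC, the tenascin of glioma matrix, had 1293 and 1329 CPM in Ctrl and 965 and 1515 CPM in PRMT3-KD libraries (log2 fold change -0.08, 95% interval -0.69 to 0.53, edgeR adjusted p = 0.828). FN1 was lower in both PRMT3-KD libraries, whereas TNC lay below Ctrl in library 1 and above it in library 2.

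**Figure D3:**
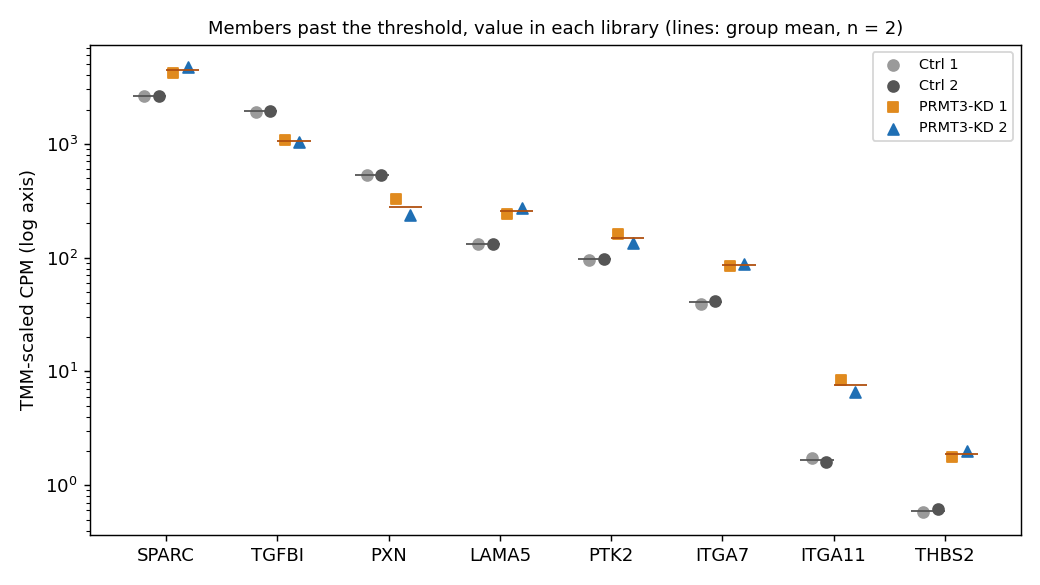
CPM, on a log axis, of the 8 genes past the threshold in each library, with the mean of each group of 2 as a line. For all 8 genes both PRMT3-KD libraries lie on the same side of both Ctrl libraries, from TGFBI at 1076 and 1037 CPM against 1918 and 1933 to THBS2 at 1.77 and 2.01 CPM against 0.577 and 0.618. Of all genes tested, 33.3% were higher and 33.8% lower in this way, and the test favours such genes.

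The basement membrane linkers and the fibrillins and fibulins gave no gene past the threshold in edgeR (10.9% of all genes were). HSPG2, which encodes the heparan sulfate proteoglycan perlecan, had 150 and 154 CPM in Ctrl and 68.8 and 210 CPM in PRMT3-KD libraries. Library 2 was 3.04 times library 1, the highest such ratio among the 48 genes, and the log2 fold change of -0.13 had a 95% interval of -1.53 to 1.28 (edgeR adjusted p = 0.887). NID1, the linker between laminin and collagen IV, had 322 and 330 CPM in Ctrl and 245 and 359 CPM in PRMT3-KD libraries (log2 fold change -0.11, edgeR adjusted p = 0.722). FBN1 and FBN2, the fibrillins of microfibrils, were above both Ctrl libraries in both PRMT3-KD libraries with log2 fold changes of 0.33 and 0.35 (edgeR adjusted p of 0.0798 and 0.264). FBLN1 had a log2 fold change of 0.06 (edgeR adjusted p = 0.755). FBLN2 had 20 counts in each Ctrl library and 7 and 20 in the PRMT3-KD libraries, so that only library 1 was far from Ctrl. Its log2 fold change of -0.54 (edgeR adjusted p = 0.488) was -0.04 without PRMT3-KD library 1 and -1.38 without library 2.

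The 2 PRMT3-KD libraries disagreed on the direction of many adhesion genes. For 16 of the 48 genes (33.3%, against 19.5% of all genes tested) one PRMT3-KD library lay above both Ctrl libraries and the other below both. In 12 of them, namely THBS3, TNC, HSPG2, NID1, FBLN1, ITGA4, ITGA9, ITGB8, FERMT2, ILK, LAMB2 and LAMC1, library 1 was the lower one, and in ITGA10, ITGAM, ITGB2 and LAMA1 library 2 was. This split by direction was not counted over all genes, so it has no share to be set against. PRMT3-KD library 2 was over 1.5-fold higher than library 1 for 15 genes (31.2%, against 9.34%), including FN1, TNC, THBS1, LAMA4, LAMB2, LAMC1, HSPG2 and ITGB4. Of these 15 genes, 14 were below both Ctrl libraries in library 1 and 9 were above both in library 2. Because the 15 were picked for a higher library 2, a low library 1 is partly built in. The same counts were not taken over all genes, so nothing is concluded from them. Library 2 was over 1.5-fold lower for ITGA10, ITGA2, ITGAM, ITGB5 and LAMB4 (10.4%, against 7.63%). Between the 2 Ctrl libraries, ITGAM was the only tested gene of the 48 that differed by over 1.5-fold, with 11 and 5 counts. It was lower in Ctrl library 2 (2.08%, against 1.53% of all genes), and 0 of the 48 were higher there by that much (against 1.84% of all genes).

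These shares describe 4 libraries and were not tested. The median log2 ratio of PRMT3-KD library 2 to library 1 was 0.18 over the 48 genes and -0.03 over all genes tested. The 8 genes past the threshold had a ratio of library 2 to library 1 between 0.724 and 1.14. The edgeR test favours genes whose libraries lie close together, so this closeness is partly built in. Beyond them, both PRMT3-KD libraries were above both Ctrl libraries for 10 more genes and below both for 9 more, which makes 16 genes higher (33.3%, against 33.3% of all genes) and 11 lower (22.9%, against 33.8%).

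**Figure D4:**
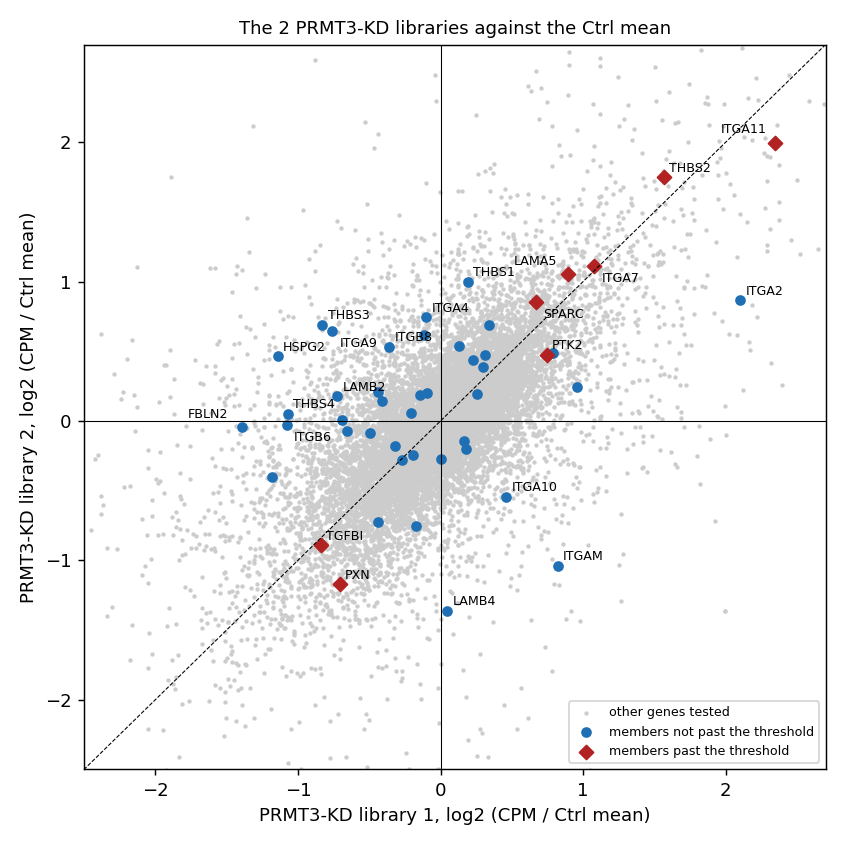
PRMT3-KD library 2 against PRMT3-KD library 1, each as log2 of CPM over the Ctrl mean, for all genes tested (111 lie outside the axes) and for the 48 adhesion genes. The genes past the threshold lie near the diagonal, which is partly built in, as the edgeR test favours genes whose libraries lie close together. HSPG2, THBS3, ITGA9 and ITGB8 lie in the upper left, below Ctrl in library 1 and above it in library 2.

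A 7-base sequence, CAGCTCA, which had been noted in earlier results of these data, was searched in 3′ UTRs of canonical GENCODE 44 transcripts on the mRNA strand. It is shown with 8 bases on each side for every tested adhesion gene whose 3′ UTR holds it, since these genes encode matrix proteins and receptor subunits that rose or did not pass the threshold (ITGAL and ITGAX, which were not tested, hold it too), with the 7 bases in capitals and U written as T:
FBN2: agccaaagCAGCTCAtttgtgac
FN1: tccagcttCAGCTCAactcacag
HSPG2, first copy: gcaaaaggCAGCTCAcccctggg
HSPG2, second copy: tgaagatcCAGCTCAagtgccat
ITGA11: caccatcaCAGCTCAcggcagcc
ITGA5: cccaggacCAGCTCAggacagat
ITGA9: ctccttccCAGCTCAgaagccct
ITGB8: ctgattatCAGCTCAgatcccgc
On GRCh37 the 7 bases lie at chr5:127594460-127594466 (FBN2, exon 65), chr2:216226136-216226142 (FN1, exon 46), chr1:22149314-22149320 and chr1:22148859-22148865 (HSPG2, exon 97), chr15:68591321-68591327 (ITGA11, exon 30) and chr12:54789537-54789543 (ITGA5, exon 30), all on the minus strand, and at chr3:37863509-37863515 (ITGA9, exon 28) and chr7:20453915-20453921 (ITGB8, exon 14) on the plus strand.

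Among genes tested with a 3′ UTR of at least 50 bases, 17.5% carry the sequence, and 7 of the 48 adhesion genes do (14.6%): FBN2, FN1, HSPG2, ITGA11, ITGA5, ITGA9 and ITGB8. Over all genes, 11.7% of those with the sequence fell past the threshold, against 4.82% of those without it. As the sequence had been noted in earlier results of these same libraries, this difference is a description and no separate test. None of the 7 adhesion genes that carry it fell past the threshold, and ITGA11, with a log2 fold change of 2.18, rose. The others did not pass, with log2 fold changes of 0.35 (FBN2), -0.34 (FN1), -0.13 (HSPG2), -0.28 (ITGA5), 0.12 (ITGA9) and 0.15 (ITGB8). Among so few genes, none is close to the share of 11.7%, so nothing is concluded from it. PXN and TGFBI, which fell, have 0 copies. A match of letters is a description of the annotated transcript and says nothing about what binds there.

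Of 30 other focal adhesion adaptors and kinases, all tested, 3 rose and 1 fell past the threshold (4.97% and 5.97% of all genes did), with a median log2 fold change of 0.14. ZYX, which encodes zyxin, had 640 and 650 CPM in Ctrl and 1029 and 1199 CPM in PRMT3-KD libraries (log2 fold change 0.79, edgeR adjusted p = 0.0204). GIT1, a scaffold that binds paxillin, had 74.6 and 77.3 CPM in Ctrl and 141 and 111 CPM in PRMT3-KD libraries (log2 fold change 0.73, edgeR adjusted p = 0.0358; adjusted p = 0.0602 on library totals alone), and was under 1.5-fold without PRMT3-KD library 1 (log2 fold change 0.55). VASP, an actin polymerase partner of zyxin that is named after its value was seen, had a log2 fold change of 0.72 (edgeR adjusted p = 0.0215). CRKL, an SH2 adaptor that binds phosphorylated paxillin, had 89.8 and 91.9 CPM in Ctrl and 49.7 and 44.1 CPM in PRMT3-KD libraries (log2 fold change -0.96, edgeR adjusted p = 0.0170). Like PXN, it was lower in both PRMT3-KD libraries.

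Of 36 other adhesive and elastic-fibre glycoproteins, 30 were in the table and 22 were tested, with 2 higher (4.97% of all genes were), 1 lower (5.97% of all genes were) and a median log2 fold change of 0.13. MFAP5, a microfibril protein, had 20 and 21 counts in Ctrl against 81 and 59 in PRMT3-KD libraries (log2 fold change 1.82, edgeR adjusted p = 0.0346). POSTN, or periostin, a close relative of TGFBI, had 82 and 64 counts in Ctrl against 170 and 220 in PRMT3-KD libraries (log2 fold change 1.45, edgeR adjusted p = 0.0239). It rose where TGFBI fell. MFAP2 had 37 and 30 counts in Ctrl against 5 and 9 in PRMT3-KD libraries (log2 fold change -2.21, edgeR adjusted p = 0.0320, and 0.0970 with limma-voom). The fibulins EFEMP1 and EFEMP2 had log2 fold changes of 0.33 and -0.42 (edgeR adjusted p of 0.111 and 0.422).

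Of 18 non-integrin matrix receptors and tetraspanins, 17 were tested, with 2 higher and 0 lower, beside 4.97% and 5.97% of all genes, and a median log2 fold change of 0.40, beside 0.0055 for all genes. BCAM, a receptor for the LAMA5 chain, had 54.4 and 55.2 CPM in Ctrl and 90.5 and 125 CPM in PRMT3-KD libraries (log2 fold change 0.98, edgeR adjusted p = 0.0333). CD63, a tetraspanin that travels with integrins, had 355 and 356 CPM in Ctrl and 651 and 495 CPM in PRMT3-KD libraries (log2 fold change 0.69, edgeR adjusted p = 0.0463; 0.0749 on library totals alone), and was likewise under 1.5-fold without PRMT3-KD library 1 (log2 fold change 0.48). The hyaluronan receptor CD44 had a log2 fold change of 0.0011 (edgeR adjusted p = 0.997).

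Markers of other cell types were uneven. The 4 leukocyte markers in the table summed to 29.7 and 29.7 CPM in Ctrl and 14.3 and 25.8 CPM in PRMT3-KD libraries. Most of each sum was LAPTM5, with 607 and 580 counts in Ctrl against 271 and 584 in PRMT3-KD libraries (log2 fold change -0.46, edgeR adjusted p = 0.364). CSF1R had 146 and 149 counts in Ctrl against 63 and 98 (log2 fold change -0.85, edgeR adjusted p = 0.0713), and CORO1A had 65 and 87 against 25 and 44 (log2 fold change -1.11, edgeR adjusted p = 0.0887), both lower in each PRMT3-KD library without passing the threshold. The defining PTPRC had 2 to 7 counts per library, with 5 and 2 in Ctrl and 5 and 7 in PRMT3-KD, and was not tested. The 4 endothelial markers in the table summed to 29.2 and 30.9 CPM in Ctrl and 20.6 and 38.5 CPM in PRMT3-KD libraries, with unlike changes among them. KDR had 556 and 612 counts in Ctrl against 340 and 284 in PRMT3-KD libraries, lower in both (log2 fold change -0.86, edgeR adjusted p = 0.0428). CDH5 had 140 and 146 counts in Ctrl against 129 and 722 in PRMT3-KD libraries, high in library 2 alone (log2 fold change 1.56, edgeR adjusted p = 0.221). The 4 epithelial markers in the table summed to 9.56 and 9.23 CPM in Ctrl and 9.01 and 12.99 CPM in PRMT3-KD libraries. CLDN4 had 148 to 228 counts per library and KRT14 had 10 to 132, while KRT5 and the defining CDH1 had at most 8 and 4. The leukocyte and endothelial sums were lowest in PRMT3-KD library 1, and their part in the results was not tested. Of the 7 glioma and astrocyte markers tested, SOX9 fell (log2 fold change -0.65, edgeR adjusted p = 0.0215). GFAP had 363 and 392 counts in Ctrl against 32 and 153 in PRMT3-KD libraries (log2 fold change -2.03, edgeR adjusted p = 0.0958).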

How the data were processed

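RNA-seq counts of 2 Ctrl and 2 PRMT3-KD U251 libraries, grouped by their labels, were analysed. The authors deposited whole-number counts per gene, not normalized; the study's methods give alignment to hg19 with TopHat and counting with Cufflinks, and the submitters' processing notes also name CASAVA and DESeq2. Versions, gene annotation and strand setting are not given in the sources used here, so reads of genes that overlap on opposite strands may be shared. The table held 15576 entries, of which 1 duplicate was removed, and 99.9% of identifiers matched GENCODE 44 lifted to GRCh37, which gave positions, exon lengths and 3′ UTRs and may differ from the annotation counted.

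The fit used edgeR 4.0.16 in R 4.3.3 (filterByExpr with minimum count 10 and minimum total 15, TMM factors of 0.955 to 1.02, glmQLFit and glmQLFTest, Benjamini-Hochberg adjustment over 13172 genes). The F statistic of each gene gave its standard error (SE) and 95% interval. Total counts limit the precision of low genes. Levels of different genes were compared per kilobase of exon, apart from the choice of named genes by Ctrl CPM below. Alternatives were DESeq2 1.42.0, limma-voom (limma 3.58.1) with group weights, other scalings and filters, no fold threshold, the replicate number as a block and leaving out each library in turn, in which the lone library is taken to vary like the other group. The code was tested on simulated data. Python 3.11.15 with pandas 2.3.3, NumPy 2.4.6 and matplotlib 3.10.9 was used for the rest.

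Genes, lists and tests were chosen with earlier results of these data known. Named were every adhesion gene past the threshold, the 10 others with the highest Ctrl CPM, all integrin beta subunits, PTK2, ILK, PXN, FERMT1 and FERMT2, and in each pathway list the 2 largest increases and decreases past the threshold. Other genes are given in shorter form. Of the genes that the choice by symbol gives, 1 is not reported here, so it is in no count or figure of adhesion genes and only in the fit across all genes. ITGA8, NID2, FBLN3 and FBLN4 were not analysed here under those symbols, and the genes of the marker and pathway lists outside the table were not analysed here.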

Additional observations from a re-analysis of the deposited data

How the results depend on the processing

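In all, 1441 genes passed the threshold, and other tests, scalings and filters passed between 1275 (library totals) and 1834 (DESeq2). It was 2278 without a fold threshold and 0 to 3068 with each library left out, 0 and 26 without Ctrl library 1 or 2 and 3068 and 2984 without PRMT3-KD library 1 or 2. Adhesion genes higher in PRMT3-KD cells numbered 6, 9 with DESeq2, 9 with limma-voom, 5 on library totals, 8 without a fold threshold and 0 to 12 with a library left out. Those lower numbered 2, 3 with DESeq2, 3 with limma-voom and 0 to 12 with a library left out. The log2 fold change of PRMT3 lay between -3.61 and -2.68 with a library left out, with adjusted p of 0.0963 and 0.0512 (edgeR) without Ctrl library 1 or 2. Over the 48 genes and the tests, scalings, filters and replicate block (381 values), 361 kept their direction and side of the threshold, 9 passed it newly, 1 (PTK2 on library totals) no longer passed and 10 changed sign.

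Of these 10, 8 came without the block and lay near 0: ILK at -0.0079 and LAMA1 at -0.0095 on library totals, ITGA10 at -0.0549, ITGA9 at -0.0215, ITGAM at -0.0198 and THBS3 at -0.0385 with limma-voom, and ITGB2 at 2.3e-04 with DESeq2 and 7.9e-05 with upper-quartile scaling. With each library left out, 19 genes changed sign, over ranges of -0.10 to 0.20 (FBLN1), -0.21 to 0.0588 (FERMT2), -1.15 to 0.46 (HSPG2), -0.15 to 0.18 (ILK), -0.54 to 0.45 (ITGA10), -0.11 to 0.74 (ITGA4), -0.76 to 0.64 (ITGA9), -1.02 to 0.81 (ITGAM), -0.20 to 0.17 (ITGB2), -0.37 to 0.53 (ITGB8), -0.14 to 0.16 (LAMA1), -0.70 to 0.0042 (LAMA4), -0.73 to 0.18 (LAMB2), -1.35 to 0.0410 (LAMB4), -0.12 to 0.61 (LAMC1), -0.41 to 0.14 (NID1), -0.83 to 0.69 (THBS3), -1.07 to 0.0518 (THBS4) and -0.45 to 0.21 (TNC). The cause was not tested.

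Samples with the same replicate number did not deviate together (correlation of the differences 0.0222). As the Ctrl libraries differed by little more than counting error, this correlation cannot show whether the samples were paired. The labels give them only a shared number. With the number as a replicate block, 1464 genes passed, 1274 of them among the 1441, with 7 adhesion genes higher (ITGA2 added, adjusted p = 0.0401, edgeR) and 2 lower, and the other 2 changes of sign were those of ITGA10 and THBS3, to -0.0146 and -0.0512.

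The alternatives for the pathway lists and for the counts of disagreeing PRMT3-KD libraries were chosen after seeing the data. The number of genes on opposite sides of Ctrl was 16, and 15 to 17 under another scaling. Without Ctrl library 1 no gene of the whole table passed, so none of the pathway lists did. With each library left out, the log2 fold change was 0.67 to 0.89 for ZYX, 0.55 to 0.89 for GIT1 and 0.61 to 0.82 for VASP. For CRKL it was -1.04 to -0.88, for MFAP2 -2.60 to -1.92, for MFAP5 1.48 to 2.09 and for POSTN 1.28 to 1.63. BCAM ranged from 0.72 to 1.19 and CD63 from 0.48 to 0.87. With 2 libraries a group and such unequal spread, differences of moderate size can be missed, and a gene not past the threshold is not shown to be unchanged. Intervals rest on a spread pooled over both groups.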
